A study of Mus musculus with 18 samples.

Results

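Arc, Egr1, Egr2, Egr3, Egr4, Npas4, Nr4a1, Nr4a2, Nr4a3 and Bdnf are genes that neurons switch on when they are active, and they are described here across a time course of ischemic stroke in the mouse brain. They were taken by name, with earlier results of these data known, and are 10 of the 34921 genes read from the deposited expression table. The study sequenced total RNA from micro-punched brain tissue of male mice of the inbred strain C57BL/6, 9 weeks of age, in 18 libraries of 6 groups with 3 libraries each. Stroke was made by photothrombosis, in which a light-sensitive dye (rose bengal, 100 mg/kg into the abdomen) and a laser through the skull (532 nm, 40 mW, 15 min, centred 2 mm right of bregma, a skull landmark) clot the vessels under the beam. The lesioned right side was punched at 4 h (libraries 2, 3 and 6), 1 day (1, 3 and 4), 3 days (1, 2 and 8) and 10 days (1, 2 and 5), with magnetic resonance images as the guide. The control group was the matching right side of sham mice (libraries 1, 2 and 3), called sham right, for which the labels give neither a time nor what the sham operation included. A second group came from the left side (libraries 1, 3 and 5), called contralateral left. The protocol draws those punches from mice with a stroke, but title and disease state read sham, without a time. Nothing says whether a left punch and another library come from 1 mouse.

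When calcium enters a neuron, kinases activate transcription factors that wait on the DNA. Among them are CREB on the cAMP response element (CRE), SRF on the CArG box and MEF2 on its own site. Within minutes these switch on immediate-early genes without new protein synthesis. Most of the 10 genes encode transcription factors themselves: the zinc finger proteins Egr1 to Egr4, the neuron-restricted factor Npas4, and the nuclear receptors Nr4a1 to Nr4a3, which need no hormone. Arc encodes a protein of synapses that promotes the removal of AMPA-type glutamate receptors, and Bdnf a secreted growth factor that acts through the receptor Ntrk2 and is driven by several promoters. In the cortex the transcripts follow recent firing, sensory input and waking, and some Egr and Nr4a genes are also induced in immune and vascular cells.

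Sequences upstream of the genes are shown because the CRE is the element through which calcium reaches many of them. The RefSeq promoter table (assembly GRCm38.p6, 300 bases around an annotated start, mostly upstream of it) holds 17 promoters of 7 of the 10 genes. They belong to Egr2, Egr4, Npas4, Nr4a1, Nr4a2, Nr4a3 and Bdnf, and 5 of the 17 are printed, each 5′ to 3′ on the gene's own strand. Capitals mark every match to a motif searched on both strands, which in these 5 are the CRE core TGACG (or its reverse complement), the EGR site GCGNGGGCG and, in Egr2, the CArG box. They are Nr4a1 (chr15:101266596-101266895, plus strand), Npas4 (chr19:4989922-4990221, minus strand), Egr4 (chr6:85513540-85513839, minus strand), the third of 5 listed promoters of Egr2 (chr10:67537619-67537918, plus strand) and Nr4a3 (chr4:48045055-48045354, plus strand).
Nr4a1: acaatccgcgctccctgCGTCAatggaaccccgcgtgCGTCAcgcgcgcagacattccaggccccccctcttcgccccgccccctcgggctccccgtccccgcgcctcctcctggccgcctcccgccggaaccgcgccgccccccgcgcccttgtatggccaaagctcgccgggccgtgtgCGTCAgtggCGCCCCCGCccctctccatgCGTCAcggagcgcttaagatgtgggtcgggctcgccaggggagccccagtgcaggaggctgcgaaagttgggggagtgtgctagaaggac
Npas4: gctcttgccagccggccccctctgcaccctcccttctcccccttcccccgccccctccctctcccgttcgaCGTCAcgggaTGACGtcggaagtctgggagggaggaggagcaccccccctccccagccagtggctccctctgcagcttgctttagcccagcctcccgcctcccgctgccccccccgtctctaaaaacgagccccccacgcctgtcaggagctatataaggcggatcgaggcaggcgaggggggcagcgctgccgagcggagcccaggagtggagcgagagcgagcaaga
Egr4: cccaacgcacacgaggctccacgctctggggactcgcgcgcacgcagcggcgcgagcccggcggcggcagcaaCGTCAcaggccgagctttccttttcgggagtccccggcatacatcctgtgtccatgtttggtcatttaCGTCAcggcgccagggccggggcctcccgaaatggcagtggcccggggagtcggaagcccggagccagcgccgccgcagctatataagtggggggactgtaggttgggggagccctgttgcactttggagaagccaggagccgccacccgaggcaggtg
Egr2: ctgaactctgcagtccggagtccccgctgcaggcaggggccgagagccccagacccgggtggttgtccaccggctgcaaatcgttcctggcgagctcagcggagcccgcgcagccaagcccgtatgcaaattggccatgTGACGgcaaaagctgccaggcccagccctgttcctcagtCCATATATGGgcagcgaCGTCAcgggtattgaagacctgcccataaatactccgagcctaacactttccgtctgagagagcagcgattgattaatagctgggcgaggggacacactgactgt
Nr4a3: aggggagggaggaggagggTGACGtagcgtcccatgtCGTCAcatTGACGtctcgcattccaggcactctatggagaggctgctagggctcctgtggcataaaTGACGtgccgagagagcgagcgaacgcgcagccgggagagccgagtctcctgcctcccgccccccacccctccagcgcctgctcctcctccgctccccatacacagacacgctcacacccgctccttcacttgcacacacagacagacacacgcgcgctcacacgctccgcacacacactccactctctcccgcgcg

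The Nr4a1 promoter holds 4 CRE cores and 1 EGR site, and the Nr4a3 promoter 4 CRE cores. Npas4 and Egr4 hold 2 each, and the printed Egr2 promoter 2 beside a CArG box. A CRE core was found in at least 1 promoter of 7 of the 7 genes and in 9 of their 17 promoters. Bdnf had it in 1 of 7 promoters. Of all 32851 promoters listed 20.8% and of 27025 genes 23% hold this core. The palindromic CRE TGACGTCA was in 0 of the 17 promoters and in 1.79% of all promoters. Every match to it also holds the CRE core. An EGR site was found in Nr4a1 and Nr4a2 (5.55% of all promoters), a CArG box in 4 promoters of Egr2 only (1.63%), a MEF2 site in Nr4a2 (3.19%), and the NR4A monomer site AAAGGTCA in none (1.51%). Several Egr2 windows overlap, so their matches are the same bases counted more than once. A match says only that the letters are there.

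The unit is FPKM, in which fragments are divided by transcript length and library total, so levels may be compared between genes on this per-length scale. Every fold change is a difference of log2(FPKM + 1) with its standard error from limma, fitted to the 14016 genes that reached 1 FPKM in 3 or more libraries, and a gene is said to have risen or fallen where its adjusted p over those genes is under 0.05. On this scale the change of a gene with low FPKM, such as Egr2 or Nr4a3, comes out too small. All 10 genes passed the filter. Read totals were not used here. A rough nominal depth, taken from the commonest low values, ran from 12.6 (10 day library 5) to 29.6 M fragments (4 h library 6). Mitochondrial transcripts took 24.4% to 44.6% of the summed FPKM, and the mean correlation of a library with its own group across genes ran from 0.933 to 0.988. The highest mitochondrial share and the lowest correlation both belong to 10 day library 5. No 2 libraries hold identical values.

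In sham right tissue Arc had the highest level (82.7 ± 10.9 FPKM, SD, n = 3). It was followed by Egr1 (49.9 ± 9.54 FPKM), Nr4a1 (31.8 ± 3.01 FPKM), Egr3 (17.0 ± 4.58 FPKM), Egr4 (11.9 ± 2.55 FPKM) and Nr4a2 (10.0 ± 1.4 FPKM). Bdnf stood at 6.59 ± 0.744 FPKM, Npas4 at 5.14 ± 0.873 FPKM, Egr2 at 1.95 ± 0.481 FPKM and Nr4a3 at 1.94 ± 0.287 FPKM. Neighbours in this order had separate ranges except Egr3 with Egr4, Egr4 with Nr4a2, and Egr2 with Nr4a3. The punches held neurons in all groups by their markers. Each of 20 pan-neuronal markers and 10 markers of cortical excitatory neurons reached 1 FPKM in at least 1 library of every group.

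**Figure D1:**
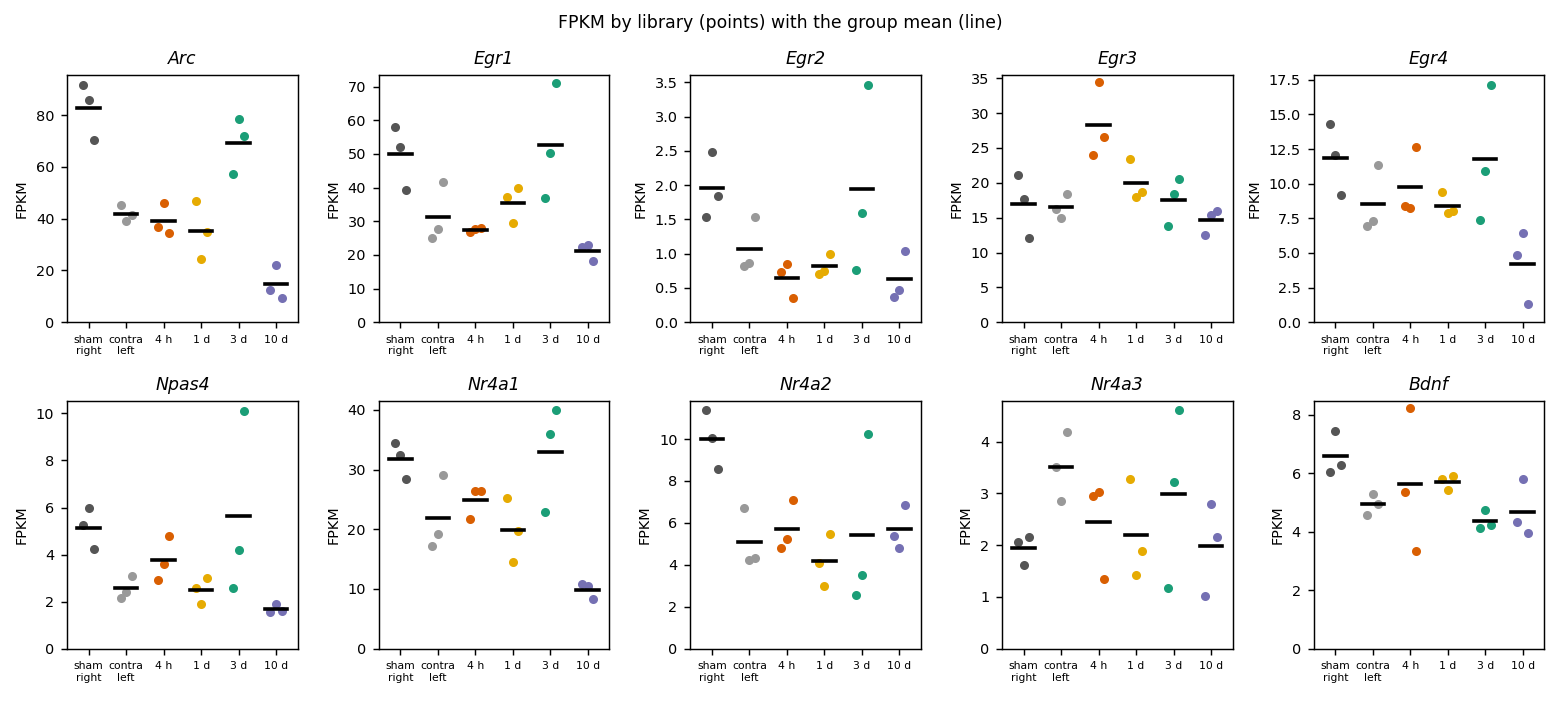
FPKM (vertical axes, linear from 0) of each of the 10 genes in the 18 libraries; points are libraries, lines are group means, and the 6 groups run along the horizontal axes. Arc lies between 9.25 and 22.0 FPKM in the 10 day libraries and between 70.6 and 91.6 FPKM in sham right, and only Egr3 has its 3 highest values at 4 h.

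At 10 days 5 of the 10 genes fell against sham right, namely Arc, Nr4a1, Egr1, Npas4 and Egr4, and none rose. Over all genes tested, 0.92% were called lower and 6.21% higher at this time. The median log2 fold change of the 10 genes was -1.03, beside -0.068 over all genes tested, and all 10 values were below 0. In 8 of the 10 genes the 3 libraries at 10 days all lay below the 3 of sham right, as did 13.2% of all genes tested. Arc alone fell at 4 h, when 0.863% of all genes were called lower, and at 1 day, when 0.278% were. At 3 days none of the 10 was called, beside 7.36% of all genes in either direction. Over the 4 times together, 6 of the 10 passed the limma F-test against sham right (13.5% of all genes did): Arc, Nr4a1, Egr1, Npas4, Egr3 and Egr4. The F-test call of Egr4 (adjusted p = 0.0439) was lost without any 1 sham right library (adjusted p from 0.053 to 0.0807). That of Npas4 was lost without sham right library 1 or 2 (adjusted p = 0.0606 and 0.0663). All comparisons with sham right share its 3 libraries and are not independent.

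**Figure D2:**
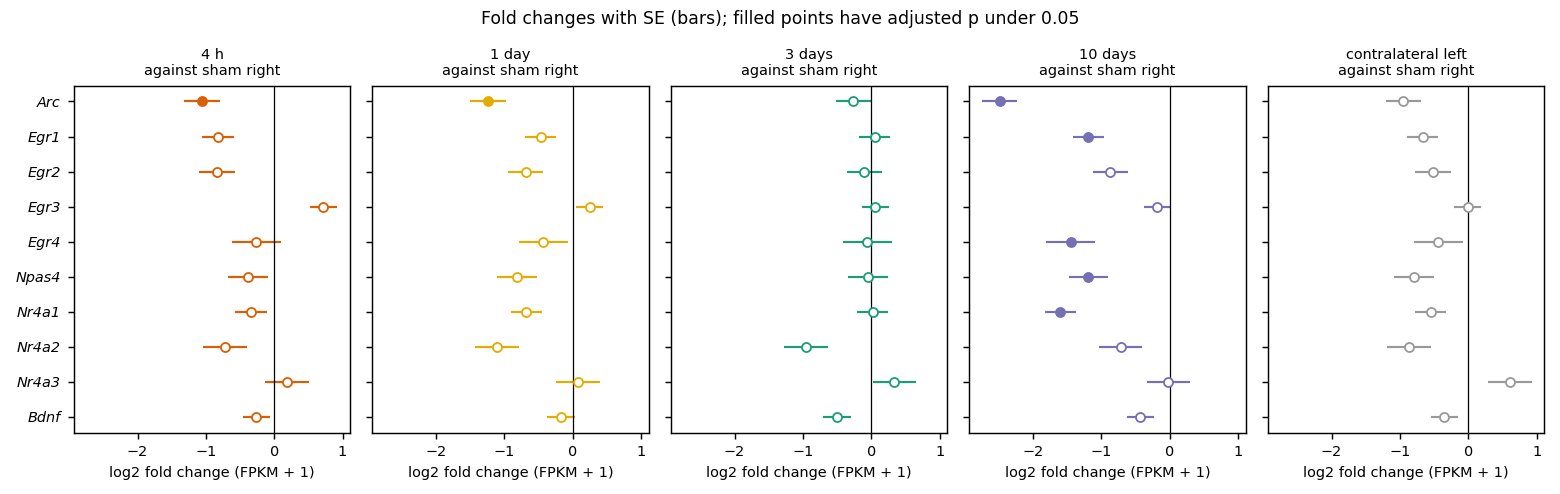
Log2 fold changes (horizontal axes, log2(FPKM + 1) scale) of the 10 genes in 5 comparisons with sham right; points are limma estimates, bars are SE, and filled points have an adjusted p under 0.05. Filled points are Arc at 4 h and 1 day and 5 genes at 10 days, from -1.19 (Egr1 and Npas4) to -2.49 (Arc).

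Arc (ENSMUSG00000022602, chromosome 15, 74669083 to 74672570, minus strand, GRCm38, protein-coding) was lower at 4 h and 1 day, higher again at 3 days and lowest at 10 days. Its FPKM in sham right was 91.6, 85.8 and 70.6. It was 36.7, 46.1 and 34.6 at 4 h, and 46.9, 24.5 and 34.7 at 1 day. It was 57.3, 78.7 and 71.8 at 3 days and 12.6, 22.0 and 9.25 at 10 days. The libraries at 4 h, 1 day and 10 days all lie below every sham right library, those at 3 days overlap it, and the highest value at 10 days is below the lowest at any other time. Arc fell by 1.06 ± 0.26 on the log2 scale at 4 h (limma adjusted p = 0.0439) and by 1.24 ± 0.26 at 1 day (limma adjusted p = 0.0241). At 3 days the difference was -0.26 ± 0.26 (limma adjusted p = 0.733). At 10 days Arc fell by 2.49 ± 0.26 (limma adjusted p = 4.87e-06). In bulk tissue, fewer cells of a type and less RNA per cell cannot be told apart.

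The early falls of Arc were called with little to spare and differ with the control group. The call at 4 h was lost when any 1 library of sham right or 4 h was left out (limma adjusted p from 0.0757 to 0.161, log2 fold change -1.18 to -0.98), and against contralateral left the difference was -0.11 (adjusted p = 0.814). The call at 1 day was lost without any 1 of the sham right libraries, and without 1 day library 3 or 4 (adjusted p from 0.0553 to 0.17), although the log2 fold change stayed between -1.35 and -1.01, and against contralateral left the difference was -0.29 (adjusted p = 0.552). The fall at 10 days was called without each library in turn (-2.82 to -2.23), and against contralateral left it was -1.54 (adjusted p = 0.000673).

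The steps between times were tested directly. From 1 day to 3 days Arc rose by 0.99 ± 0.26 on the log2 scale (limma adjusted p = 0.0341), and its 3 libraries at 3 days all lay above those at 1 day, as did 16.9% of all genes. It was the 1 gene of the 10 called in that step, beside 5.07% of all genes called higher. Leaving out 1 day library 3 or 4, or 3 day library 2 or 8, ended that call (adjusted p from 0.0808 to 0.207). From 3 to 10 days Arc fell by 2.24 ± 0.26 (limma adjusted p = 0.000246), Nr4a1 by 1.61 ± 0.23 (limma adjusted p = 0.00103) and Egr1 by 1.24 ± 0.23 (limma adjusted p = 0.00668), while 1.19% of all genes were called lower. In a fit of only these 2 groups, which called 3 of all genes, none of the 3 passed (adjusted p from 0.118 to 0.197). In that step 5 of the 10 genes had all 3 libraries at 10 days below the 3 at 3 days, as did 20.1% of all genes. From 4 h to 1 day none of the 10 passed the limma test (0 at an adjusted p under 0.05, beside 1.23% of all genes), and Egr3 (-0.48 ± 0.20, all 3 libraries lower) had the largest difference.

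Nr4a1 (ENSMUSG00000023034, chromosome 15, 101254269 to 101274795, plus strand, protein-coding), a nuclear receptor also known as Nur77, whose promoter above holds 4 CRE cores, had the second largest fall at 10 days. Its FPKM was 34.4, 32.4 and 28.5 in sham right, and 21.7, 26.5 and 26.4 at 4 h. At 1 day it was 25.3, 14.5 and 19.7, and at 3 days 22.9, 36.0 and 39.9. At 10 days the values were 10.8, 10.4 and 8.32. All 9 libraries at 4 h, 1 day and 10 days were below the lowest of sham right, and the 10 day libraries were below all others. Nr4a1 fell by 1.6 ± 0.23 on the log2 scale at 10 days (limma adjusted p = 0.000145). It fell by 1.04 against contralateral left (adjusted p = 0.00657), and the fall was called without each library in turn (-1.67 to -1.49). The differences at 4 h (-0.34 ± 0.23), 1 day (-0.68 ± 0.23) and 3 days (0.02 ± 0.23) did not pass.

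Nr4a2 (ENSMUSG00000026826, chromosome 2, 57106830 to 57124003, minus strand), the receptor Nurr1 that dopamine neurons need for their development, did not share that course. Its FPKM was 11.4, 10.05 and 8.59 in sham right, 4.79, 5.21 and 7.10 at 4 h, and 4.07, 2.98 and 5.47 at 1 day. It was 2.54, 3.52 and 10.24 at 3 days, and 5.38, 4.81 and 6.86 at 10 days. Apart from 3 day library 8, every stroke library lay below the lowest sham right library. None of its differences from sham right passed, with log2 values of -0.72 ± 0.32 at 4 h, -1.11 ± 0.32 at 1 day, -0.96 ± 0.32 at 3 days and -0.72 ± 0.32 at 10 days (limma adjusted p from 0.0983 to 0.279). Without 3 day library 8 the difference at 3 days was -1.45 and passed (adjusted p = 0.00108). In fits of only the 2 groups compared, Nr4a2 passed at 4 h (adjusted p = 0.0422) and at 1 day (adjusted p = 0.024).

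Nr4a3 (ENSMUSG00000028341, chromosome 4, 48045153 to 48086447, plus strand), the receptor Nor-1, stayed between 1.01 and 4.61 FPKM in all 18 libraries. Its values were 2.06, 1.62 and 2.16 FPKM in sham right and 1.01, 2.80 and 2.15 FPKM at 10 days. At 4 h they were 2.94, 3.03 and 1.35 FPKM, at 1 day 3.28, 1.42 and 1.88 FPKM, and at 3 days 1.17, 3.21 and 4.61 FPKM. Every stroke group overlaps sham right, and the difference at 10 days was -0.02 ± 0.32 on the log2 scale (limma adjusted p = 0.981). The promoters of Nr4a1, Nr4a2 and Nr4a3 each hold 4 CRE cores, and the part of these cores in the levels was not tested.

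Egr1 (ENSMUSG00000038418, chromosome 18, 34859823 to 34864984, plus strand, protein-coding), the most used marker of recent neuronal activity among the Egr genes, was at 58.1, 52.1 and 39.4 FPKM in sham right. It was 26.9, 27.6 and 27.9 FPKM at 4 h, and 37.3, 29.4 and 39.8 FPKM at 1 day. It was 36.9, 50.2 and 71.0 FPKM at 3 days, and 22.2, 22.9 and 18.1 FPKM at 10 days. The libraries at 4 h and 10 days are below all of sham right, while those at 1 day and 3 days overlap it. Egr1 fell by 1.19 ± 0.23 on the log2 scale at 10 days (limma adjusted p = 0.00212), and the call held without each library in turn (-1.35 to -1.08). Against contralateral left the difference was -0.52 (adjusted p = 0.181). At 4 h the difference from sham right was -0.82 ± 0.23 (limma adjusted p = 0.0723).

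Egr3 (ENSMUSG00000033730, chromosome 14, 70077203 to 70082614, plus strand, protein-coding), a close relative that binds the same DNA motif as Egr1, had higher values at 4 h. Its FPKM was 21.2, 17.7 and 12.1 in sham right and 24.0, 34.4 and 26.6 at 4 h. It was 23.4, 17.9 and 18.7 at 1 day, 13.8, 18.4 and 20.5 at 3 days, and 12.6, 15.4 and 15.9 at 10 days. Only the 4 h libraries lie wholly above sham right, and the other 3 times overlap it. The difference at 4 h was 0.72 ± 0.20 on the log2 scale (limma adjusted p = 0.0692), so it did not pass by itself. Egr3 passed the F-test over the 4 times (limma adjusted p = 0.0312). That F-test call was lost without 4 h library 3 (adjusted p = 0.16) or 6 (0.0808), and without 10 day library 1 (0.0628). It was also lost with no filter on low FPKM, with the replicate number as a block, and with the pan-neuronal markers held equal. Egr3 passed at 4 h in 2 of 16 alternatives. It did so with both control groups together as control (0.73, adjusted p = 0.0301), where Arc did not (-0.59, adjusted p = 0.148). It also did so without both libraries numbered 5 (0.72, adjusted p = 0.0274). It was the 1 gene of the 10 with all 3 libraries at 4 h above sham right, as were 18.8% of all genes, while 5 of the 10 had all 3 below, as did 17.2% of all genes.

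The FPKM ratio of Egr3 to Egr1, chosen after their values were seen and given without a test, sets the pair side by side within single libraries. It was 0.307 to 0.365 in sham right and 0.894, 1.24 and 0.953 at 4 h. At 1 day it was 0.469 to 0.627, at 3 days 0.289 to 0.374, and at 10 days 0.565 to 0.878. In contralateral left it was 0.652, 0.542 and 0.441, also above all of sham right. At 3 days the ratio overlapped that of sham right, and at 4 h Egr3 had a mean of 28.3 ± 5.41 FPKM beside 27.5 ± 0.550 FPKM for Egr1.

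Egr4 (ENSMUSG00000071341, chromosome 6, 85511121 to 85513589, minus strand, protein-coding) fell by 1.45 ± 0.36 on the log2 scale at 10 days (limma adjusted p = 0.0163). Its FPKM was 14.3, 12.1 and 9.20 in sham right and 4.82, 6.44 and 1.31 at 10 days, so library 5 is far below the other 2. At 4 h it was 8.36, 8.23 and 12.7, at 1 day 9.41, 7.85 and 8.01, and at 3 days 7.35, 10.9 and 17.1. The 10 day libraries are below all others, and the earlier times overlap sham right. Without 10 day library 5 the difference was -0.95 (adjusted p = 0.0733), without sham right library 1 or 2 the adjusted p was 0.0814 or 0.0616, and against contralateral left it was 0.0976. In a fit of only the 2 groups it was 0.157.

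Egr2 (ENSMUSG00000037868, chromosome 10, 67535475 to 67542188, plus strand), also known as a regulator of myelination in Schwann cells, was the Egr gene with the lowest level. Its FPKM was 1.53, 2.48 and 1.85 in sham right and 0.732, 0.847 and 0.3598 at 4 h. At 1 day it was 0.710, 0.752 and 0.997, at 3 days 0.767, 1.597 and 3.46, and at 10 days 0.375, 0.470 and 1.03. The 9 libraries at 4 h, 1 day and 10 days lie below all of sham right. The difference at 10 days was -0.87 ± 0.26 on the log2 scale (limma adjusted p = 0.0582) and did not pass. It did without 10 day library 5 (-1.04, adjusted p = 0.0404) and with a pseudocount of 0.1 in place of 1 (-1.58, adjusted p = 0.0457).

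Npas4 (ENSMUSG00000045903, chromosome 19, 4984355 to 4990316, minus strand, protein-coding), a transcription factor that calcium entry induces in neurons and that drives inhibitory synapse formation, fell by 1.19 ± 0.29 on the log2 scale at 10 days (limma adjusted p = 0.0155). Its FPKM was 5.24, 5.96 and 4.22 in sham right and 1.55, 1.89 and 1.58 at 10 days. At 4 h it was 2.93, 3.58 and 4.77, at 1 day 2.56, 1.91 and 3.01, and at 3 days 2.56, 4.196 and 10.11. The 10 day libraries lie below every other library, the 1 day libraries below sham right, and the 3 day group spans both sides of sham right. The difference was -0.82 ± 0.29 at 1 day (limma adjusted p = 0.314). The call at 10 days was lost without sham right library 1 or 2 or without 10 day library 5 (adjusted p = 0.0556, 0.0788 and 0.0536), while the log2 fold change stayed between -1.18 and -1.10, and against contralateral left the difference was -0.41 (adjusted p = 0.427).

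Bdnf (ENSMUSG00000048482, chromosome 2, 109674700 to 109727007, plus strand, protein-coding) ranged from 3.32 to 8.23 FPKM over the 18 libraries, and its ratio of highest to lowest value (2.48) was the smallest of the 10 genes. It overlaps Gm45346 on the other strand, and the strand handling of the quantification is not given in the sources used here, so reads of the pair cannot be told apart. Its FPKM was 6.05, 7.44 and 6.28 in sham right, 5.35, 8.23 and 3.32 at 4 h, and 5.81, 5.41 and 5.90 at 1 day. It was 4.12, 4.72 and 4.22 at 3 days and 4.33, 5.78 and 3.95 at 10 days. The libraries at 1 day, 3 days and 10 days all lay below sham right. None of its differences passed, the largest being -0.50 ± 0.20 on the log2 scale at 3 days (limma adjusted p = 0.192). It was the 1 gene of the 10 with all 3 libraries at 3 days below sham right, as were 9.67% of all genes. The median at 3 days over the 10 was -0.05 beside 0.075 over all genes.

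At 1 day 6 of the 10 genes had all 3 libraries below sham right (8.5% of all genes did) although Arc alone fell. The 6 were Arc, Egr2, Npas4, Nr4a1, Nr4a2 and Bdnf, and the median over the 10 was -0.58 beside 0.034 over all genes. At 4 h the median over the 10 was -0.36 beside 0.006 over all genes. Low medians were not limited to the lesioned side, since that of contralateral left was -0.53 beside -0.048 over all genes.

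On the left side none of the 10 genes passed against sham right (limma, beside 0.0285% of all genes). Arc was at 45.5, 39.2 and 41.3 FPKM there, Npas4 at 2.17, 2.40 and 3.09 FPKM, and Nr4a2 at 6.70, 4.23 and 4.32 FPKM. These and Bdnf had all 3 left libraries below sham right (4 of 10, as did 8.29% of all genes), and Nr4a3, at 3.51, 2.85 and 4.196 FPKM, all 3 above it (3.6% of all genes). The Arc difference was -0.95 ± 0.26 on the log2 scale (limma adjusted p = 0.434), and the median over the 10 was -0.53 beside -0.048. Left library 5 was the highest of its group in 7 of the 10 genes. Without it Egr1, at 25.0 and 27.6 FPKM in the remaining libraries, passed with -0.88 (adjusted p = 0.0294), in a fit that called 1213 genes (8.65%) instead of 4.

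In some groups most of the 10 genes were high or low in the same library, and in others they were split. At 3 days library 1 had the lowest value of its group in 10 of 10 genes and library 8 the highest in 8 of 10. At 1 day library 3 was the lowest in 9 of 10, and in sham right library 3 was the lowest in 7 of 10. At 4 h library 6 was the highest in 4 and the lowest in 4, and at 10 days library 5 was the highest in 3 and the lowest in 5. The share of all genes that behave this way was not computed. The mean z-score of the 10 genes, each scaled over the 18 libraries, was -0.56, 0.44 and 1.34 in 3 day libraries 1, 2 and 8. Library 8 at 3 days holds the highest value of all 18 for Egr1, Egr2, Egr4, Npas4, Nr4a1 and Nr4a3.

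**Figure D3:**
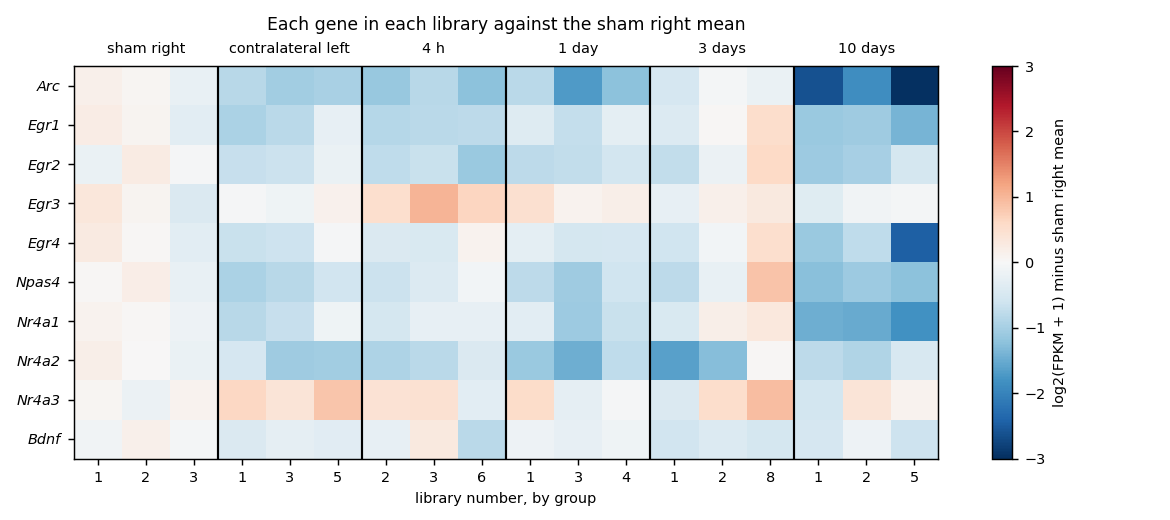
Color shows log2(FPKM + 1) of each gene (rows) in each of the 18 libraries (columns, by group) minus the sham right mean, from -3 (blue) to 3 (red). The 10 day columns are blue for Arc, Egr1, Npas4, Nr4a1 and Egr4, Egr3 is red at 4 h, and 3 day libraries 1 and 8 differ along nearly the whole column.

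Markers of other cells also differed from sham right at 10 days, and some did so at earlier times. The summed FPKM of 20 pan-neuronal markers was 2057 to 2284 in sham right and 1765 to 2017 at 10 days. Of the 20, 1 (Gap43) was called lower, 18 had a log2 fold change below 0, and none was at 0 FPKM throughout a group. Their median log2 fold change was -0.33. For 10 markers of cortical excitatory neurons the sums were 743 to 1024 and 518 to 944 FPKM. With the mean of the pan-neuronal markers set equal in every library, 4 of the 5 genes passed. On the log2 scale Arc was at -2.18, Nr4a1 at -1.28, Egr4 at -1.13 and Egr1 at -0.87 (limma adjusted p from 6.61e-06 to 0.0188), while Npas4 was at -0.87 (adjusted p = 0.0527). That setting called 2381 of all genes at 10 days (17%) instead of 1000 (7.13%), and moved the median of all genes from -0.07 to 0.25. For 8 microglial markers the sums went from 100.4 to 127.6 FPKM in sham right to 424.7 to 517.5 FPKM at 10 days, and 4 were called higher. For 10 markers of monocytes, macrophages and neutrophils they went from 15.8 to 25.4 FPKM to 587 to 2071 FPKM, with 5 of 8 tested called higher. Ly6g, which was at 0 in sham right, and Retnlg were under 1 FPKM in every 10 day library. For 8 markers of fibroblasts, Schwann cells and choroid plexus the sums went from 153 to 277 FPKM to 474 to 707 FPKM. These sums were also 384 to 542 FPKM in contralateral left and 7.92 to 580 FPKM at 4 h, so they do not set the 10 day group apart. Of 6 tested, 4 were called higher at 10 days (Col1a1, Col3a1, Dcn and Lum), with means of 22.4 to 30 FPKM there. Of 8 astrocyte markers Gfap alone was called higher, and no tested marker of excitatory, inhibitory or striatal projection neurons, endothelium and mural cells, oligodendrocytes or lymphocytes (Cd4, the 1 of 7 that was tested) passed. At 3 days, when none of the 10 genes was called, the microglial sums were 239.5 to 330 FPKM, with 4 of 8 called higher. Those of monocytes, macrophages and neutrophils were 114.8 to 240.7 FPKM, with 4 of 8 tested called higher. Gfap stood 3.11 above sham right on the log2 scale at 3 days and 2.08 at 10 days. At 4 h the sums of 9 endothelial and mural markers were 71.3 to 75.2 FPKM, beside 127 to 137 FPKM in sham right. The part of these cells in the falls of the 5 genes was not tested.

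Other genes of the same pathways show what accompanied the 10. Of 16 further transcription factors that activity induces quickly, 6 fell and 1 rose at 10 days, beside 0.92% of all genes called lower and 6.21% higher. Fos, the partner of Jun in the AP-1 factor, went from a mean of 14.8 to 3.78 FPKM and fell by 1.74 ± 0.27 on the log2 scale (limma adjusted p = 0.000291). Ier2 fell by 0.88 ± 0.14 and Klf10 by 0.90 ± 0.17, while Atf3, a stress-induced factor, rose by 1.87 ± 0.20. The median over these 16 was -0.44. At 4 h Maff (2.00 ± 0.20), Atf3 (1.8 ± 0.20) and Fosb (1.07 ± 0.19) rose and Ier2 fell by 0.58 ± 0.14, beside 1.32% of all genes called higher and 0.863% lower, and the median over the 16 was 0.15 where that of the 10 genes was -0.36.

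Of 24 effector genes that neuronal activity induces, 4 rose at 4 h and none fell, beside 1.32% of all genes called higher. They include Nptx2, a pentraxin that gathers glutamate receptors at synapses, which went from a mean of 12.2 to 47.2 FPKM (log2 fold change 1.84 ± 0.27, limma adjusted p = 0.00203), Gadd45b (1.22 ± 0.17) and Ptgs2 (1.03 ± 0.23). At 1 day Dusp1, a phosphatase that switches off MAP kinases, fell by 0.77 ± 0.17. At 10 days 4 of the 24 fell and none rose (0.92% of all genes were called lower), among them Dusp1 (by 1.04 ± 0.17), Arl4d (by 1.12 ± 0.29) and Gpr3 (by 0.59 ± 0.16), with a median of -0.46 over the 24. Dusp1 rose by 0.81 ± 0.17 from 1 to 3 days and fell by 1.08 ± 0.17 from 3 to 10 days. None of 23 genes of calcium, CREB, SRF and MEF2 signaling passed against sham right at any of the 4 times, with medians between -0.18 and 0.22. None of 14 tested partners and receptors of the 10 genes passed at any of these times either, with a median of -0.17 at 10 days.

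**Figure D4:**
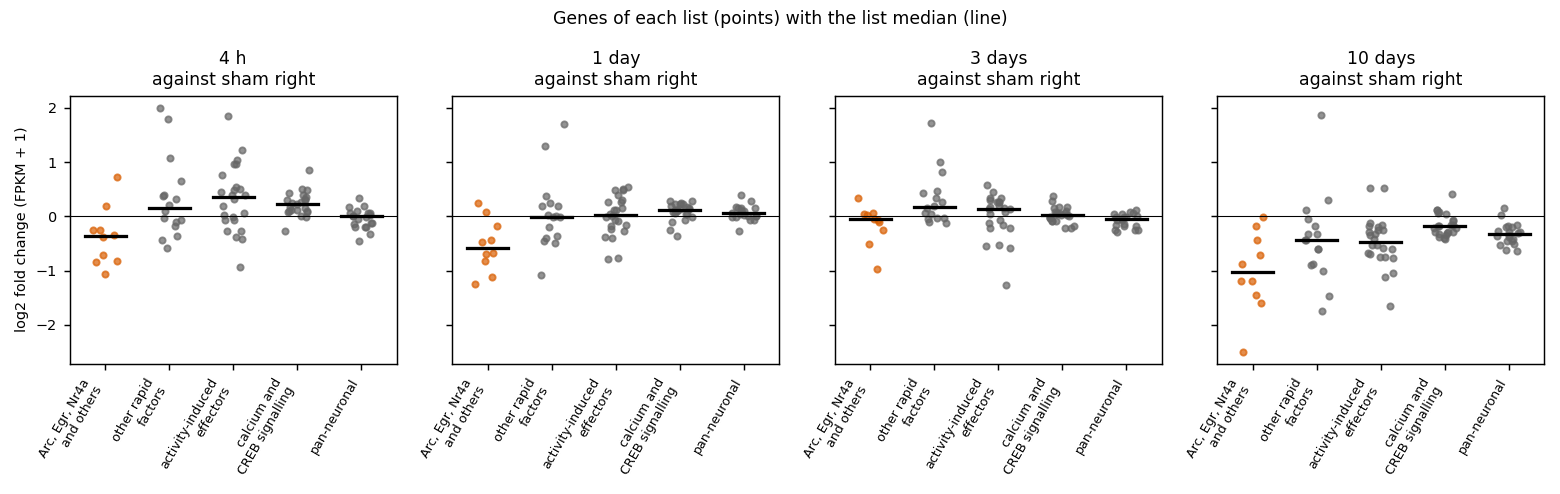
Log2 fold changes (vertical axis, log2(FPKM + 1) scale) against sham right of the genes of 5 lists at the 4 times; points are genes, lines are list medians, and the 10 genes described here are orange. The orange median is -0.36 at 4 h and -1.03 at 10 days, where those of the other rapid factors are 0.15 and -0.44.

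Across the 18 libraries Nr4a1 (Pearson r = 0.92), Egr1 (0.837), Egr4 (0.824) and Npas4 (0.76) followed Arc most closely among the 10 genes on the log2(FPKM + 1) scale, and Egr3 (0.214), Nr4a2 (0.272), Nr4a3 (0.29) and Bdnf (0.36) least. After the group means were taken out the order was different, with r values with Arc of 0.6 for Egr4, 0.582 for Nr4a1, 0.561 for Nr4a3, 0.532 for Bdnf, 0.517 for Egr3, 0.462 for Egr1, 0.289 for Npas4, 0.1 for Nr4a2 and 0.002 for Egr2. Among the other 14006 genes tested, the 5 most like Arc were Dusp1 (r = 0.875), Ier2 (0.86), Junb (0.857), Kctd7 (0.842) and Srrd (0.828). The 5 most like the mean z-score of the 10 genes were Fos (0.871), Ier2 (0.837), Dusp1 (0.818), Nfil3 (0.80) and Btg2 (0.791). With group means taken out, the r of Fos with that mean was 0.768 and that of Dusp1 with Arc 0.469. These values were selected as the highest and are given as a description. The libraries fall into groups, and depth and tissue makeup differ between libraries, also within a group.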

How the data were processed

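Total RNA from brain punches was sequenced in 18 libraries of 6 groups, 3 libraries each. The authors deposited FPKM per gene and library; per the submitters' processing notes, the tools were StringTie 1.3.4d, HISAT2 2.1.0 and Trimmomatic 0.36 and the build GRCm38. Settings, annotation, strand handling and any scaling between libraries are not given in the sources used here. The deposited p-values and q-values name no comparison and were not used. The copy used here ends inside a line and holds 34921 complete entries, of which 34797 were matched to GENCODE M21 for coordinates. A larger mitochondrial share can lower the FPKM of other genes, but summed FPKM was not constant here (311067 to 470682). Without mitochondrial genes, the sum relative to the geometric mean of all libraries was 1.022 in 10 day library 5. It was 0.922 in 1 day library 4, which had the lowest mitochondrial share.

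Log2(FPKM + 1) of the 14016 genes that reached 1 FPKM in 3 or more libraries was fitted with limma 3.58.1 (R 4.3.3, statmod 1.5.0), with 1 mean per group over all 18 libraries and empirical Bayes moderation (trend and robust). P-values were Benjamini-Hochberg adjusted over all genes tested in each comparison, and calls were made at an adjusted p under 0.05. The script was tested on simulated data. The protocol counts 3 animals per group, and libraries were treated as independent.

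The genes named are the 10 chosen by name, the 5 others with the highest Pearson r with Arc and with the mean z-score of the 10, and, from each pathway list, up to 3 called genes with the smallest adjusted p in each direction. The genes and lists were chosen with earlier results of these data known, so their counts are a description. Marker genes are named only where they bear on a value. Nominal depth is rough: it takes as 1 fragment the low value found most often among genes of 1 exon over 300 bases, and no counts were derived. Alternatives were a pseudocount of 0.1, no filter, fits of only the groups compared, 3 scalings, the replicate number as a block, each library left out, both libraries numbered 5 left out, and the left side as control or as part of it.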

Additional observations from a re-analysis of the deposited data

Results flagged for a closer look

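Differences between time points were tested directly for each of the 10 genes, and the steps that passed mark genes whose level differed between stroke groups. Arc, the synaptic protein gene, rose by 0.99 on the log2 scale from 1 day to 3 days and changed by -2.24 from 3 to 10 days. From 3 to 10 days Nr4a1 changed by -1.61 and Egr1 by -1.24. No other step of the 10 genes passed (limma, adjusted over all genes tested). With 3 libraries per group, single libraries were not screened for extreme values.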

How the results depend on the processing

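Of 7 calls against sham right, each under 16 alternatives (112 values), 77 kept the call, 35 lost it and 0 changed direction. Arc and Nr4a1 at 10 days were called under all 16. The cause of each change below was not tested.

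The count of the 10 genes called at 4 h (1) became 0 with no filter, with values rescaled without mitochondrial genes and with contralateral left as control, 2 with median-of-ratios scaling, and 4 in fits of only the 2 groups or without both libraries numbered 5. The count at 1 day became 0 with no filter and with contralateral left or both groups as control, and 3 in fits of 2 groups. At 3 days it became 1 in fits of 2 groups, and at 10 days 2 with contralateral left as control and 6 with a pseudocount of 0.1. With both groups as control the count at 4 h stayed at 1, with Egr3 in place of Arc. The left side against sham right gave 3 without both libraries numbered 5, in a fit that called 2760 of all genes (19.7%) instead of 4. For 3 days against 1 day it became 0 with no filter and in fits of 2 groups, and 2 with the pan-neuronal list held equal or without both libraries numbered 5. For 10 days against 3 days it was 0 in fits of 2 groups, which called 3 of all genes, and the F-test called 3 with no filter. With 1 library left out the counts were 0 at 4 h, 0 to 1 at 1 day, 0 to 1 at 3 days, 3 to 5 at 10 days, 0 to 1 on the left side, 0 to 3 for 3 days against 1 day, 3 to 6 for 10 days against 3 days and 3 to 7 for the F-test.

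Library numbers are shared across groups but no label says that they pair mice. Over 14 same-numbered pairs of libraries the correlation of deviations ran from -0.23 to 0.41, with fewer than 3 pairs per comparison. With the replicate block the counts were 0 at 4 h, 1 at 3 days, 0 for 3 days against 1 day and 1 for 10 days against 3 days, and the Egr4 call at 10 days was lost (adjusted p = 0.0549). The count at 1 day stayed at 1 with another gene, since Arc was lost (-1.15, adjusted p = 0.214) and Nr4a2 gained (-1.28, adjusted p = 0.0397). At 10 days the count was 6, with Egr2 (-1.02, adjusted p = 0.00124) and Nr4a2 (-0.80, adjusted p = 0.0423) gained. Nr4a2 was also gained at 3 days (-1.52, adjusted p = 0.00247) and, like Egr2, in the F-test (adjusted p = 0.00659 and 0.00719). Under the block these differences changed sign: at 3 days Egr1 (-0.27), Egr3 (-0.11), Nr4a1 (-0.21) and Nr4a3 (-0.03); for 1 day against 4 h Egr4 (0.19) and Bdnf (-0.14); for 3 days against 1 day Egr4 (-0.20), Nr4a2 (-0.24) and Nr4a3 (-0.28).

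In all, 76 differences changed sign, 0 of them called under either setting. With median-of-ratios scaling these were at 3 days Egr1 (-0.05), Egr3 (-0.03) and Nr4a1 (-0.08), at 10 days Nr4a3 (0.03) and on the left side Egr3 (0.09). With the pan-neuronal list held equal they were at 3 days Egr4 (0.02) and Npas4 (0.03), at 10 days Egr3 (0.14) and Nr4a3 (0.30), on the left side Egr3 (0.14), and for 1 day against 4 h Bdnf (-0.02). With contralateral left as control they were at 4 h Egr4 (0.18), Npas4 (0.41), Nr4a1 (0.21), Nr4a2 (0.15), Nr4a3 (-0.42) and Bdnf (0.09), at 1 day Egr1 (0.20), Egr4 (0.01), Nr4a3 (-0.53) and Bdnf (0.18), at 3 days Arc (0.70), Egr2 (0.42), Egr4 (0.38), Npas4 (0.74) and Nr4a3 (-0.27), and at 10 days Nr4a2 (0.15). With both groups as control they were Npas4 (0.02) and Nr4a3 (-0.12) at 4 h, Nr4a3 (-0.23) at 1 day, and Arc (0.22), Egr2 (0.16), Egr4 (0.16) and Npas4 (0.35) at 3 days.

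With 1 library left out, the ranges that crossed 0 were Bdnf (-0.53 to 0.02) at 4 h and Nr4a3 (-0.15 to 0.26) at 1 day. At 3 days they were Egr1 (-0.19 to 0.27), Egr2 (-0.45 to 0.22), Egr3 (-0.15 to 0.23), Egr4 (-0.35 to 0.21), Npas4 (-0.50 to 0.32) and Nr4a1 (-0.14 to 0.25), at 10 days Nr4a3 (-0.22 to 0.24), and on the left side Egr3 (-0.22 to 0.16). For 1 day against 4 h they were Arc (-0.40 to 0.05), Egr4 (-0.27 to 0.02), Nr4a3 (-0.36 to 0.07) and Bdnf (-0.19 to 0.36), for 3 days against 1 day Nr4a2 (-0.34 to 0.49) and Nr4a3 (-0.04 to 0.65), and for 10 days against 3 days Nr4a2 (-0.10 to 0.73) and Bdnf (-0.06 to 0.17).

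Over all genes, the 306 calls at 4 h became 90 without sham right library 3, 106 with the block and 1806 without both libraries numbered 5, the 165 at 1 day became 62 to 418, the 1032 at 3 days became 1834 in fits of 2 groups, and the 1000 at 10 days became 2381 with the pan-neuronal list held equal, which moved the median of all genes by 0.32. Depth was known only roughly, so low values carry no counting interval.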
